A study of Homo sapiens with 6 samples.

Results

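The genes described here are the 32 genes of ER-associated degradation (ERAD) given by name, grouped by role into lectins and mannosidases, the dislocation complex around the ubiquitin ligase SYVN1, ubiquitin-conjugating enzymes, other membrane ligases with the erlins, and the ATPase VCP with its cofactors and NGLY1. All 32 were found among the 62703 Ensembl gene IDs of the deposited tables, and all 32 passed the filter on low counts that left 16082 genes. RNA was sequenced from H929 (NCI-H929), an established human multiple myeloma line, with 3 libraries from cells given 1 µM Mi-2 for 24 h and 3 from cells given the solvent DMSO for 24 h. Mi-2 is a compound that blocks the protease activity of MALT1, and the labels give the genotype of every sample as WT. The results rest on 1 cell line at 1 concentration and 1 time. All 6 titles carry the tag bio rep 1, and separate cultures are not mentioned anywhere. The p-values therefore reflect the spread among these libraries alone, and that spread may be technical.

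ERAD removes proteins that fail to fold in the endoplasmic reticulum (ER). Mannose trimming marks a stalled glycoprotein, lectins carry it to a membrane ubiquitin ligase, and the chain is threaded back through the membrane, ubiquitinated, pulled out by VCP and handed to the proteasome in the cytosol. Plasma cells and myeloma cells secrete or retain very large amounts of immunoglobulin, and many ERAD genes are known targets of XBP1 and ATF6, transcription factors of the unfolded protein response.

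With Mi-2, 10 of the 15 genes for recognising and dislocating ERAD substrates were higher, while those for ubiquitin conjugation and most VCP cofactors did not pass the test. The members and lists were chosen with earlier results of these data known, and a difference between the roles was not tested. Of the 32 members, 13 rose at an adjusted p under 0.05 (edgeR quasi-likelihood test, adjusted over all genes tested), against 5.02% of all genes tested. No member fell by that test, against 6.03% of all genes, while 2 members were lower at an unadjusted p under 0.05 and DESeq2 called 1, UBE2G2, lower. The 13 were the lectin and mannosidase-like genes EDEM1, EDEM2, OS9 and ERLEC1, the dislocation genes SYVN1, HERPUD1, DERL2, DERL3, SELENOS and SELENOK, the ligase gene RNF185, and VCP and UBXN4. Their fold changes ran from 1.32-fold for HERPUD1 to 1.93-fold for ERLEC1. The median log2 fold change was 0.27 over the 32 members and 0.00 over all genes tested, with 25 members above 0 and 7 below. In 18 members all 3 Mi-2 libraries lay above all 3 DMSO libraries, against 15.7% of all genes, and in 3 members they lay below, against 16.6% of all genes. Among the 6726 tested genes with a mean TPM (a level corrected for gene length and library size) within the range of the members, 7.78% were called higher and 9.87% lower. In RNA from whole cultures, a change in how many cells express a gene and a change in RNA per cell cannot be told apart.

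Libraries numbered 1 had high levels of most members in both treatments. Among the 3 Mi-2 libraries, library 1 was the highest for 24 of the 32 members, or 75%, against 32% of all genes tested. Among the 3 DMSO libraries, library 1 was the highest for 25 members, or 78.1%, against 33.3% of all genes. Library 1 was the highest in both treatments for 22 members, or 68.8%, against 17.4% of all genes tested. The summed TPM of the 32 members was 4442, 3839 and 3480 in Mi-2 libraries 1, 2 and 3, against 3413, 3101 and 2673 in DMSO libraries 1, 2 and 3. The lowest Mi-2 sum was thus only just above the highest DMSO sum. A fit with the library number as a block is described with the alternatives below. The part that this spread played in the calls was otherwise not tested. Called higher whichever of the 6 libraries was left out were 6 members (EDEM2, OS9, ERLEC1, SYVN1, DERL2 and SELENOS). The count of members called higher was 6 without Mi-2 library 1, Mi-2 library 2, DMSO library 2 or DMSO library 3, and each time these were the 6 genes just named. Over all genes tested, the count called higher also fell, from 808 with all 6 libraries to 216, 516, 246 and 275 in these fits, in this order. Leaving out Mi-2 library 3 gave 14 members, with 715 of all genes higher, and leaving out DMSO library 1 gave 11 members, with 642 of all genes higher.

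**Figure D1:**
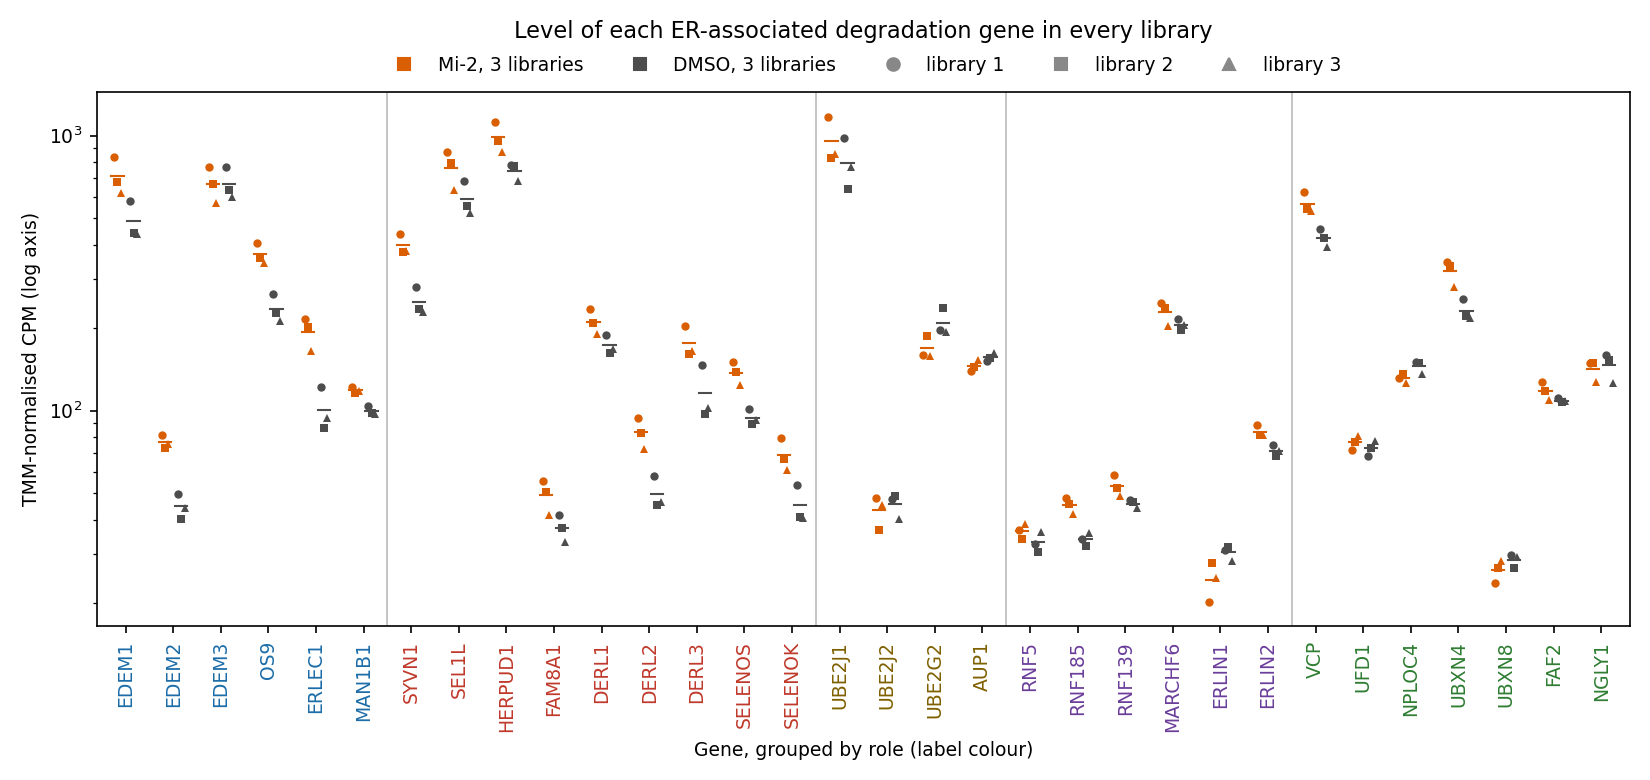
Level of each of the 32 genes in every library, as CPM (counts scaled to library size with TMM factors) on a log axis. Each gene has its 3 Mi-2 libraries on the left in orange and its 3 DMSO libraries on the right in dark grey, lines give the means, and marker shapes give the library number. Library 1 of either treatment is the top point for most genes, and ERLEC1, EDEM2 and SYVN1 show Mi-2 values well above the DMSO values.

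Total estimated counts ran from 21938900 to 23756700 in the Mi-2 libraries and from 19980700 to 22651600 in the DMSO libraries, to the nearest 100. The members took 0.739 to 0.920% of these counts with Mi-2 and 0.604 to 0.731% with DMSO. The share of counts from mitochondrial genes was also higher with Mi-2, at 4.86 to 5.05% against 4.23 to 4.66% with DMSO, with no overlap, and its part in the members' values was not tested. All 12 plasma cell and myeloma markers looked up were expressed, among them JCHAIN, MZB1, IRF4, SDC1 and TNFRSF17. Of these, MZB1 (0.70 ± 0.11, SE), an ER cochaperone of antibody-secreting cells, and IRF4 (0.35 ± 0.09) rose, while SDC1 (-0.69 ± 0.15), CD38 (-0.86 ± 0.21), FGFR3 (-0.72 ± 0.08) and CCND1 (-0.41 ± 0.09) fell by log2 fold change, and the calls of MZB1 and FGFR3 were kept with any library left out. Those of SDC1, CD38, CCND1 and IRF4 were not, the highest adjusted p being 0.165, for IRF4 (edgeR). Among 8 T and NK cell markers, CD3D and CD8A were at 0 in every library, CD3E rose (0.50 ± 0.11, not called without DMSO library 2), and the summed level was 96.5 to 118 TPM with Mi-2 and 86.9 to 92.7 TPM with DMSO, nearly all from CD3E and NCAM1. The 8 myeloid markers summed to at most 2.86 TPM with Mi-2 and 1.17 TPM with DMSO. Among 9 markers of fibroblasts, endothelium and epithelium, COL1A2 and COL3A1 were at 0, and the sum of 88.2 to 125 TPM with Mi-2 and 69.5 to 88.3 TPM with DMSO came mostly from PECAM1 and KRT18. KRT18 rose (1.07 ± 0.18), as did PECAM1 (0.35 ± 0.10), though PECAM1 was called in none of the fits that left out 1 library. Of 7 erythroid and platelet markers, PPBP and PF4 were at 0, and the sum was 2.28 to 20 TPM with Mi-2 and 0.550 to 16.3 TPM with DMSO. The part of these markers in the results was not tested.

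The most abundant member by TPM was HERPUD1, with 1059, 843 and 753 TPM in Mi-2 libraries 1, 2 and 3, against 753, 746 and 551 TPM in DMSO libraries 1, 2 and 3. It stood above every other member in all 6 libraries. UBE2J1 (279 ± 60.5 TPM with Mi-2 and 233 ± 50.8 TPM with DMSO, SD, n = 3 each) and VCP (233 ± 28.8 TPM with Mi-2 and 174 ± 23.1 TPM with DMSO) came next. Their ranges overlapped in the Mi-2 libraries, while in the DMSO libraries the lowest UBE2J1 value was just above the highest VCP value. DERL3, a Derlin typical of secretory cells, ranked 5th of the 32 in Mi-2 libraries and 7th in DMSO libraries. At the low end stood FAM8A1 (13.8 ± 1.92 TPM with Mi-2 and 10.3 ± 1.57 TPM with DMSO) and ERLIN1 (12.6 ± 1.70 TPM with Mi-2 and 15.7 ± 1.62 TPM with DMSO). Every member had at least 443 estimated counts in each library.

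Promoter sequence from RefSeq (GRCh38.p14, 250 bases before to 50 after each gene's start) was at hand for 23 of the 32 members, and the windows were searched on both strands for elements of the unfolded protein response. The ER stress element (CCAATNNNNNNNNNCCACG) was found in none of the 23 windows and in 0.0916% of 27305 genes with a window, or 0.143% of the 11154 tested genes with a window. The ER stress element II (ATTGG, any base, CCACG), bound by ATF6 and XBP1, was found in HERPUD1 and in 0.0696% of genes, or 0.134% of tested genes. The core of the UPR element (TGACGTGG), an XBP1 site, was found in VCP and UBE2J1 and in 0.927% of genes, or 1.23% of tested genes. These motifs share the letters CCACG or its reverse complement in part, and no window of a member held more than 1 of them. The stretches shown are those of all 3 members with a match, of which HERPUD1 and VCP were called higher and UBE2J1 was not. They read 5′ to 3′ on the strand of the gene, with the fixed letters of the motif in capitals.
HERPUD1, chr16:56932010-56932050, plus strand: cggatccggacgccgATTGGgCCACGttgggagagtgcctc
VCP, chr9:35072792-35072829, minus strand: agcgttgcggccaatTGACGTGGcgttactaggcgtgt
UBE2J1, chr6:89352931-89352968, minus strand: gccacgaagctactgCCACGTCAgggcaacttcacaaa
In UBE2J1 the match lies on the opposite strand. The windows were set by RefSeq starts, which differ for these genes from the GENCODE positions used for gene locations below. By the GENCODE position of VCP, its stretch and match lie inside the gene and not before its start. The last bases of the HERPUD1 stretch, but not its match, also lie inside the GENCODE gene. A match describes the letters in the window and says nothing of binding in these cells. DERL1, DERL3, ERLIN1, ERLIN2, MARCHF6, RNF139, RNF185, UBXN8 and UFD1 were not searched.

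Lectins and mannosidases, which read the sugars of a stalled glycoprotein, included ERLEC1 and EDEM2, the members with the highest log2 fold changes, and 4 of 6 were called. ERLEC1, an ER lectin that binds trimmed glycans, had 215, 202 and 164 CPM in the Mi-2 libraries, against 122, 86.2 and 93.7 CPM in the DMSO libraries (libraries 1, 2 and 3 in this order, as in all such sentences). Every Mi-2 library stood above every DMSO library, and the log2 fold change was 0.95 ± 0.14 (SE), or 1.93-fold (edgeR adjusted p = 0.00571). OS9, the second lectin of the SYVN1 complex, had 406, 359 and 345 CPM in the Mi-2 libraries, against 265, 226 and 211 CPM in the DMSO libraries. Its groups were also apart, at 0.66 ± 0.11 (edgeR adjusted p = 0.00751), a smaller log2 fold change than that of ERLEC1. The ratio of OS9 to ERLEC1 by TPM was 1.90, 1.72 and 2.06 in Mi-2 libraries and 2.32, 2.69 and 2.40 in DMSO libraries, lower in every Mi-2 library than in any DMSO library. In GENCODE 29 on GRCh38, ERLEC1 lies on chromosome 2, 53787044 to 53818819, plus strand, and OS9 on chromosome 12, 57693955 to 57721557, plus strand. EDEM2 lies on chromosome 20, 35115357 to 35147364, minus strand.

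The 3 EDEM genes, whose proteins trim mannose or deliver trimmed glycoproteins, had different values. EDEM2, which acts early in mannose trimming in human cells, had 81.8, 73.04 and 75.7 CPM in the Mi-2 libraries, against 49.8, 40.4 and 44.1 CPM in the DMSO libraries. Its Mi-2 libraries were close together and all above the DMSO libraries (0.78 ± 0.10, 1.72-fold, edgeR adjusted p = 0.00307, the lowest among the 32). EDEM1 had 837, 676 and 617 CPM in the Mi-2 libraries, against 580.1, 443 and 437 CPM in the DMSO libraries, and rose by 0.54 ± 0.14 (edgeR adjusted p = 0.0403). Mi-2 library 3 and DMSO library 1 were close for EDEM1, and its call was lost without Mi-2 library 1, Mi-2 library 2, DMSO library 2 or DMSO library 3 (highest adjusted p 0.149). EDEM3 had 767, 664 and 567 CPM in the Mi-2 libraries, against 766, 634 and 596 CPM in the DMSO libraries. These ranges overlapped almost wholly (0.00 ± 0.13, edgeR adjusted p = 0.996), and the sign of the EDEM3 value turned without Mi-2 library 1, DMSO library 2 or DMSO library 3. By TPM, the ratio of EDEM3 to EDEM1 was 0.917 to 0.999 in the Mi-2 libraries, against 1.33 to 1.42 in the DMSO libraries. The ratio of EDEM3 to EDEM2 was 2.18 to 2.71 with Mi-2 and 3.92 to 4.50 with DMSO. MAN1B1, the mannosidase of the early secretory pathway, had 122, 116 and 117 CPM in the Mi-2 libraries, against 104, 97.6 and 96.9 CPM in the DMSO libraries. Its ranges were apart but the difference was small and did not pass (0.25 ± 0.08, edgeR adjusted p = 0.0650), while DESeq2 called it (adjusted p = 0.0455).

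**Figure D2:**
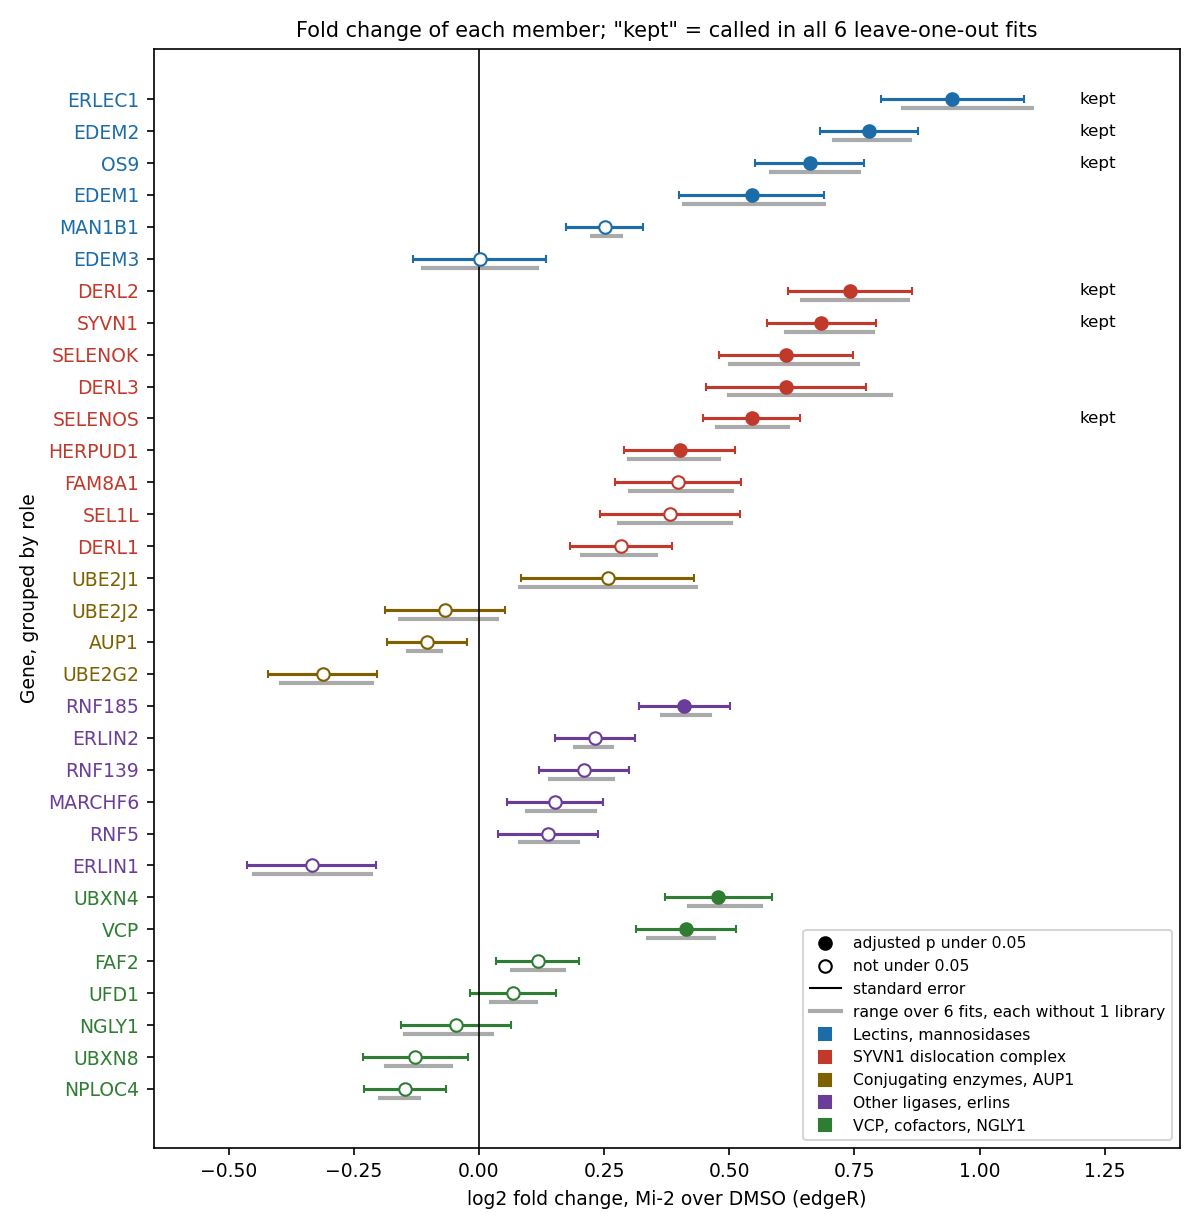
Log2 fold change of each of the 32 genes, Mi-2 over DMSO, from edgeR, with its standard error, by role. Filled points have an adjusted p under 0.05, grey bars give the range over 6 fits that each left out 1 library, and "kept" marks the 6 genes called in all of them. Lectins and the dislocation complex hold 10 of the 13 filled points, and the conjugating enzymes hold none, but a difference between the roles was not tested.

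In the dislocation complex, 6 of 9 members rose and all 9 had positive values. SYVN1, the membrane ubiquitin ligase also called HRD1, had 437, 377 and 381 CPM in the Mi-2 libraries, against 282, 234 and 228 CPM in the DMSO libraries. The groups were well apart (0.68 ± 0.11, 1.61-fold, edgeR adjusted p = 0.00665). However, SYVN1 overlaps the highly expressed FAU by 694 bases on the same strand and MRPL49 by 5189 bases on the other, and could share their reads. SEL1L, the partner that steadies SYVN1 and docks the lectins, had 871, 791 and 633 CPM in the Mi-2 libraries, against 682, 556 and 523 CPM in the DMSO libraries. Mi-2 library 3 was below DMSO library 1, and SEL1L did not pass (0.38 ± 0.14, edgeR adjusted p = 0.110). SEL1L was called by edgeR without Mi-2 library 3 (adjusted p = 0.0456) or without a low-count filter (adjusted p = 0.00909), and by DESeq2 (adjusted p = 0.0375). The TPM ratio of SEL1L to SYVN1 was 0.894, 0.919 and 0.734 in the Mi-2 libraries and 1.06, 1.04 and 0.975 in the DMSO libraries. SYVN1 was thus the more abundant of the pair in every Mi-2 library and also, by little, in DMSO library 3. HERPUD1, the ubiquitin-like membrane protein that organises the complex and whose promoter holds the element printed above, had 1119, 959 and 873 CPM in the Mi-2 libraries, against 778, 773 and 684 CPM in the DMSO libraries. It rose by 0.40 ± 0.11 (edgeR adjusted p = 0.0476), and of the 6 fits that left out a library only that without Mi-2 library 3 called it (adjusted p otherwise up to 0.159). FAM8A1, a cofactor that assists assembly of the complex, stood at 49.2 ± 7.11 CPM with Mi-2 and 37.3 ± 4.18 CPM with DMSO (0.40 ± 0.13, edgeR adjusted p = 0.0720) and did not pass. Of the 6 fits that left out a library, that without Mi-2 library 3 called FAM8A1 (edgeR adjusted p = 0.0304), and with all libraries DESeq2 called it (adjusted p = 0.0359), as did edgeR without a low-count filter (adjusted p = 0.0102). SYVN1 lies on chromosome 11, 65121780 to 65134533, minus strand, and HERPUD1 on chromosome 16, 56932048 to 56944863, plus strand.

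Derlins are membrane proteins related to rhomboid proteases that help the substrate across the membrane. DERL2 and DERL3 each overlap a gene on the opposite strand, and the strand of the reads is unknown here. DERL2 had 94.01, 83.1 and 72.6 CPM in the Mi-2 libraries, against 57.6, 45.4 and 46.4 CPM in the DMSO libraries. All Mi-2 values exceeded all DMSO values (0.74 ± 0.12, 1.67-fold, edgeR adjusted p = 0.00765). DERL3 had 204, 161 and 165 CPM in the Mi-2 libraries, against 147, 97.3 and 102 CPM in the DMSO libraries. Library 1 was the high one in both groups, the ranges were still apart (0.61 ± 0.16, edgeR adjusted p = 0.0378), and of the fits with a library left out only that without DMSO library 1 called it (adjusted p otherwise up to 0.141). DERL1 had 233, 208 and 189 CPM in the Mi-2 libraries, against 188, 162 and 168 CPM in the DMSO libraries, a difference that did not pass (0.28 ± 0.10, edgeR adjusted p = 0.105). By TPM, DERL2 reached 0.877 to 0.975 of DERL1 with Mi-2, against 0.472 to 0.620 with DMSO. This ratio also holds a difference in the estimated transcript length of DERL2 (-0.23 ± 0.10 on the log2 scale, limma adjusted p = 0.786), and on counts the log2 fold changes of DERL2 and DERL1 were 0.74 ± 0.12 and 0.28 ± 0.10. DERL3 reached 2.37 to 2.62 times DERL1 by TPM with Mi-2, against 1.64 to 1.995 times with DMSO. The estimated transcript length of DERL3 enters this ratio too (-0.15 ± 0.10 on the log2 scale, limma adjusted p = 0.818). By CPM the ratio of DERL3 to DERL1 overlapped between the treatments, with Mi-2 library 2 below DMSO library 1. The selenoproteins SELENOS and SELENOK bind Derlins and help bring VCP to the membrane. SELENOS had 150.5, 138 and 123 CPM in the Mi-2 libraries, against 101, 89.3 and 92.4 CPM in the DMSO libraries. Its groups were apart (0.54 ± 0.10, edgeR adjusted p = 0.00984). SELENOK had 79.5, 66.7 and 60.9 CPM in the Mi-2 libraries, against 53.7, 41.1 and 40.6 CPM in the DMSO libraries and rose by 0.61 ± 0.13 (edgeR adjusted p = 0.0207), with the call lost without Mi-2 library 1, Mi-2 library 2, DMSO library 2 or DMSO library 3 (highest adjusted p 0.0884). The ratio of SELENOS to SELENOK overlapped between the treatments. DERL2 lies on chromosome 17, 5471251 to 5486811, minus strand, and SELENOS on chromosome 15, 101270817 to 101277500, minus strand.

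Of 14 TPM ratios between related or partner members, chosen with the results known, 10 had ranges that did not overlap between the treatments. Each of these 10 had an exact permutation p of 0.1 (two-sided), which is the smallest that 3 against 3 allows, and 0.140 after Benjamini-Hochberg adjustment over the 14. None could have passed 0.05. How often the ratios of other gene pairs lie apart was not counted, so the 10 have no background to be set against. By CPM, the ratios of DERL3 to DERL1 and of UBE2J1 to UBE2J2, which are among the 10, overlapped between the treatments.

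**Figure D3:**
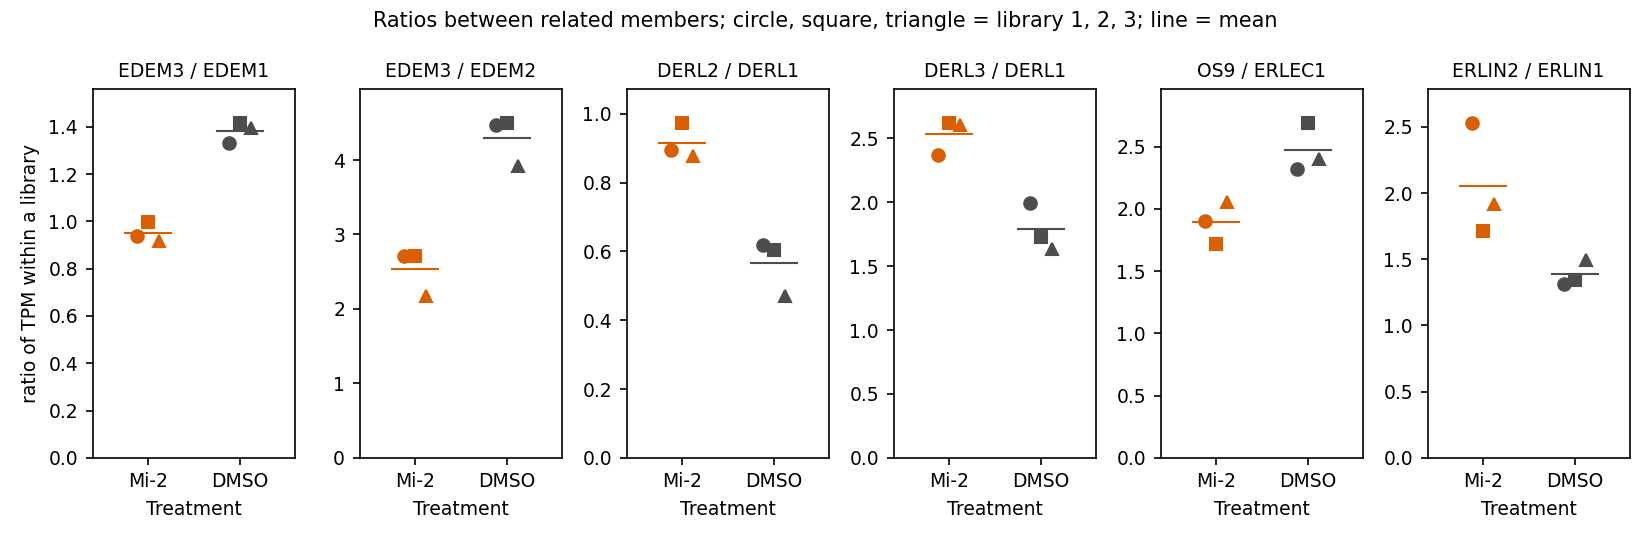
Ratio of TPM between related members within each library, with Mi-2 on the left and DMSO on the right of each panel, and a linear axis from 0. All ratios shown were picked from the 10 of 14 whose ranges did not overlap between the treatments, and the overlapping ones are not shown. The ratio of DERL3 to DERL1 overlapped by CPM. The ratio of EDEM3 to EDEM1 is 0.917 to 0.999 in the Mi-2 libraries, while EDEM3 itself had a log2 fold change of 0.00. DERL2 comes close to the level of DERL1 in the Mi-2 libraries, at 0.877 to 0.975.

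The ubiquitin-conjugating enzymes, which pass ubiquitin to the ligase, and AUP1, which recruits UBE2G2 to the membrane, held no member that passed in the edgeR fit of all 6 libraries with the filter on low counts. One of the 4, UBE2G2, had an unadjusted p under 0.05 in that fit, and it was called lower by DESeq2 (adjusted p = 0.0457) and by edgeR without a low-count filter (adjusted p = 0.0297). UBE2G2 had 159, 187 and 158 CPM in the Mi-2 libraries, against 197, 236 and 193 CPM in the DMSO libraries. Every Mi-2 library was below every DMSO library, by a small amount (-0.31 ± 0.11, edgeR adjusted p = 0.0956). UBE2J1, the most abundant of the conjugating enzymes, had 1171, 830.0 and 858 CPM in the Mi-2 libraries, against 981, 640.3 and 771 CPM in the DMSO libraries. Library 1 was high in both treatments, the ranges overlapped, and the error was large (0.26 ± 0.17, edgeR adjusted p = 0.381). AUP1 (-0.10 ± 0.08) and UBE2J2 (-0.07 ± 0.12) had log2 fold changes below 0 and overlapping ranges, and UBE2J2 turned positive without Mi-2 library 2 (0.04).

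Among the other membrane ligases and the erlins, 1 of 6 rose. RNF185, a small RING ligase of the ER membrane, had 48, 45.6 and 41.97 CPM in the Mi-2 libraries, against 34.01, 32.2 and 35.7 CPM in the DMSO libraries. The Mi-2 values were apart from the DMSO values (0.41 ± 0.09, edgeR adjusted p = 0.0215), though of the fits without 1 library only that without Mi-2 library 3 called it (adjusted p otherwise up to 0.0960). Its near relative RNF5 had 36.7, 34.1 and 38.6 CPM in the Mi-2 libraries, against 32.7, 30.5 and 36.1 CPM in the DMSO libraries. The RNF5 ranges overlapped (0.14 ± 0.10), and RNF5 has a processed copy, RNF5P1, that could share its reads. RNF139 (0.21 ± 0.09) and MARCHF6 (0.15 ± 0.10), ligases that also act on enzymes of sterol synthesis, did not pass. The erlins form a ring-like complex that hands activated calcium channels to ERAD. ERLIN2 had 88.7, 81.7 and 81.2 CPM in the Mi-2 libraries, against 74.8, 68.5 and 71.01 CPM in the DMSO libraries. ERLIN1 had 20.1, 27.9 and 24.6 CPM in the Mi-2 libraries, against 31.2, 32 and 28.4 CPM in the DMSO libraries. Their ranges were apart in opposite directions, with ERLIN2 above (0.23 ± 0.08, edgeR adjusted p = 0.0953) and ERLIN1 below (-0.33 ± 0.13, edgeR adjusted p = 0.127), and neither passed. The TPM ratio of ERLIN2 to ERLIN1 was 2.53, 1.71 and 1.92 with Mi-2, against 1.31, 1.35 and 1.498 with DMSO.

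VCP, the hexameric ATPase that pulls ubiquitinated chains from the membrane, had 625, 543 and 530.1 CPM in the Mi-2 libraries, against 457, 423 and 394 CPM in the DMSO libraries. All 3 Mi-2 values were above the DMSO values (0.41 ± 0.10, 1.33-fold, edgeR adjusted p = 0.0290). UBXN4, also called erasin, which anchors VCP at the ER, had 348, 335 and 282 CPM in the Mi-2 libraries, against 255, 221 and 216 CPM in the DMSO libraries. It rose by 0.48 ± 0.11 (edgeR adjusted p = 0.0225). For both genes the call was lost without Mi-2 library 1, Mi-2 library 2, DMSO library 2 or DMSO library 3 (highest adjusted p 0.112 for VCP and 0.0928 for UBXN4). In GENCODE, VCP lies on chromosome 9, 35056064 to 35073249, minus strand, and the stretch printed above for VCP falls within these positions. The substrate-binding pair of VCP had different values. UFD1 stood at 76.5 ± 4.50 CPM with Mi-2 and 72.97 ± 4.64 CPM with DMSO and NPLOC4 at 131 ± 4.77 CPM with Mi-2 and 145 ± 7.74 CPM with DMSO (SD, n = 3 each), with log2 fold changes of 0.07 ± 0.09 and -0.15 ± 0.08, and neither passed (edgeR adjusted p = 0.660 and 0.275). FAF2 (0.12 ± 0.08) and UBXN8 (-0.13 ± 0.11), which also recruit VCP to the ER, did not pass. NGLY1, the cytosolic enzyme that strips N-glycans from dislocated chains, had 148, 149 and 127 CPM in the Mi-2 libraries, against 159, 153 and 126 CPM in the DMSO libraries. The ranges overlapped (-0.05 ± 0.11, edgeR adjusted p = 0.830), and the sign turned without Mi-2 library 3 or DMSO library 1.

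By role, the summed TPM was 711 ± 92.0 with Mi-2 and 508 ± 78.5 with DMSO for the lectins and mannosidases, a difference of 39.8%. For the dislocation complex it was 1805 ± 267 with Mi-2 and 1285 ± 197 with DMSO, or 40.4% higher with Mi-2 (SD, n = 3 each). The conjugating enzymes with AUP1 summed to 553 ± 59.8 TPM with Mi-2 and 541 ± 54.3 TPM with DMSO. VCP, its cofactors and NGLY1 summed to 662 ± 60.0 TPM with Mi-2 and 562 ± 44.2 TPM with DMSO. A difference between the roles was not tested.

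Other genes of the pathway were read from 6 lists, to be set against the 5.02% of all genes tested that were called higher and the 6.03% called lower. The folding and glycan checkpoint of the ER lumen, the step before ERAD, had 13 of 23 genes called higher and a median log2 fold change of 0.45. DNAJB9 (1.09 ± 0.17, log2 fold change ± SE, as for the genes that follow), a co-chaperone that binds ERAD substrates, HYOU1 (0.76 ± 0.12), DNAJC3 (0.71 ± 0.13) and the disulfide isomerase gene PDIA3 (0.71 ± 0.11) had the largest rises. The count for this list was 5 without Mi-2 library 1, DMSO library 2 or DMSO library 3, and DNAJC3 was among those lost. Among 20 other membrane factors of ERAD, HM13 (0.57 ± 0.13), the signal peptide peptidase, and TMUB2 (0.46 ± 0.10) rose and the co-chaperone gene DNAJB12 (-0.31 ± 0.09) fell, with a list median of 0.16. DNAJB12 was called in none of the fits that left out a library, HM13 only without Mi-2 library 3 or DMSO library 1, and TMUB2 not without Mi-2 library 1, DMSO library 1 or DMSO library 3. Of 27 genes for cytosolic handover, deubiquitination and shuttling, only DNAJB2 was called, higher with Mi-2 (0.45 ± 0.08, not called without Mi-2 library 1 or DMSO library 3), and the median was 0.06. The counts for this list and for the other membrane factors were near the shares over all genes tested.

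None of 32 subunit genes of the 26S proteasome was called by edgeR. At an unadjusted p under 0.05, 1 was higher and 1 lower, and DESeq2 called 1 lower. Their log2 fold changes lay between -0.24 and 0.21 with a median of -0.00459. Of 15 measured sensors and transcription factors of the unfolded protein response, DDIT3 (1.29 ± 0.24), which encodes CHOP, CREB3 (0.70 ± 0.10) and ATF6B (0.46 ± 0.08) rose, and ATF6B was not called without Mi-2 library 1 or DMSO library 2. XBP1, named for its role after its values were seen, stood at 2188 ± 75.3 CPM with Mi-2 and 2492 ± 563 CPM with DMSO (-0.19 ± 0.15, edgeR adjusted p = 0.479). Gene totals do not separate its spliced from its unspliced mRNA. Among 10 ER-phagy receptors, which deliver pieces of ER to lysosomes, CALCOCO1 (1.02 ± 0.17), CCPG1 (0.51 ± 0.10) and RETREG2 (0.45 ± 0.08) rose, with a list median of 0.21. The count was 1, CALCOCO1, without Mi-2 library 1, DMSO library 2 or DMSO library 3.

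**Figure D4:**
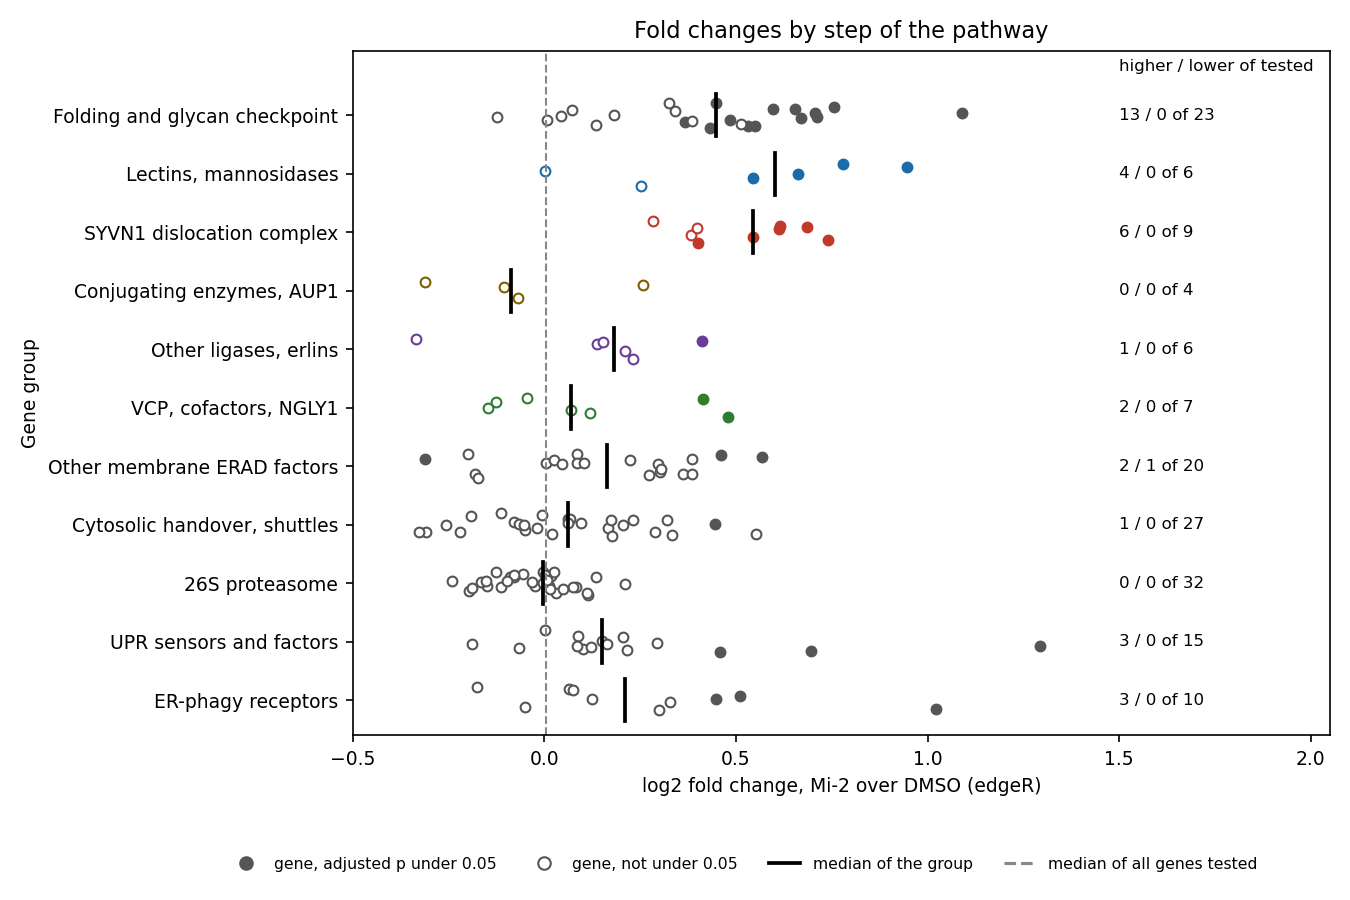
Log2 fold changes of single genes, Mi-2 over DMSO, for the 5 roles of the 32 members (colours) and the 6 lists of other pathway genes (grey), from edgeR. Filled points have an adjusted p under 0.05, black bars give medians and the dashed line the median of all genes tested. Medians run from 0.60 for the lectins and mannosidases to -0.09 for the conjugating enzymes. Among those between are 0.54 for the dislocation complex, 0.45 for the folding checkpoint and -0.00459 for the proteasome.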

How the data were processed

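Per the submitters' processing notes, fastp 0.19.5, HISAT2 2.1.0, StringTie 2.1.0, RSEM 1.3.3 and build GRCh38.p13 were used, without roles or order. The sources used here do not name the library kit, strandedness or annotation. The authors deposited estimated counts per gene, which are not scaled between libraries, and TPM values, corrected for gene length and scaled to the same total in each library. Total counts ran from 19980700 to 23756700 per library. Columns were matched to samples by title, and symbols came from a table that held 62625 of the 62703 IDs.

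Estimated counts were rounded, filtered with filterByExpr (minimum count 10, minimum total 15), scaled by TMM and tested with edgeR 4.0.16 (glmQLFit and glmQLFTest, R 4.3.3), Mi-2 against DMSO, with no other term, adjusted by Benjamini-Hochberg over 16082 genes. Each standard error is the absolute log2 fold change over the root of F. The biological coefficient of variation was 14.2%. The members and lists were chosen with earlier results of these data known. Named genes were the 32 members, up to 4 called genes per list with the largest absolute change (minimum average log2 CPM 1), and markers above an average log2 CPM of 2. XBP1 was added after its values were seen. Alternatives used DESeq2 1.42.0, limma 3.58.1 on log2(TPM + 1) or log2(TPM + 0.1), other filters and scaling, a block for library number, and fits that left out each library in turn.

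Whether reads were counted by strand is not given, so reads from overlapping genes cannot be told apart. In GENCODE 29, SYVN1 overlaps FAU by 694 bases, HERPUD1 holds a pair of sense-intronic genes, and DERL2, DERL3, ERLEC1 and AUP1 overlap MIS12, SMARCB1, ASB3 and HTRA2 on the other strand. Longer overlaps on the other strand include MRPL49 with SYVN1 (5189 bases), OXSM with NGLY1 (7123 bases) and GPR75-ASB3 with ERLEC1 (31776 bases). The overlaps named here are not all that were found.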

Additional observations from a re-analysis of the deposited data

How the results depend on the processing

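The direction of all 13 called members was kept under every alternative run. RLE scaling, a filter of 1 CPM in 3 libraries and the removal of immunoglobulin genes with the 20 highest genes kept the same 13 calls, and the last of these left 0 other pathway genes lower. DESeq2 called 16 members and 26 other pathway genes higher, adding MAN1B1, SEL1L and FAM8A1, and 1 member and 2 other pathway genes lower. Without a low-count filter edgeR called 1221 genes higher and 1541 lower, with 15 members (SEL1L and FAM8A1 added) and 29 other pathway genes higher, and 1 member and 2 other pathway genes lower. Limma on log2(TPM + 1) called 229 genes higher and 381 lower, 6 members and 10 other pathway genes higher; with 0.1 added, 249 and 398 genes, 6 members and 11 other pathway genes. Without a TPM filter limma called 0 genes in either direction, 0 members and 0 other pathway genes, although 3808 genes and 16 members had an unadjusted p under 0.05. The 6 members called on TPM were EDEM2, ERLEC1, SYVN1, DERL2, DERL3 and SELENOS, so OS9 was not among them. A pseudocount shrinks the fold changes of low genes on these log2 scales, and the same 6 members were called with 1 and with 0.1 added. The causes of these differences were not tested.

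With 1 library left out, 6 to 14 members were higher and 0 lower, with a median from 0.22 to 0.38, while 216 to 715 genes were higher and 302 to 866 lower, and 8 to 25 other pathway genes were higher and 0 lower. Values that changed sign were all uncalled: EDEM3 (from -0.11 without Mi-2 library 1 to 0.12 without DMSO library 1, -0.03 without DMSO library 2, -0.08 without DMSO library 3, -0.00634 without a low-count filter), UBE2J2 (from -0.16 to 0.037, the last without Mi-2 library 2), NGLY1 (from -0.15 to 0.027, the last without Mi-2 library 3, and 0.02 without DMSO library 1), JCHAIN (from -0.026 to 0.20, the first without Mi-2 library 1 and -0.00630 without DMSO library 2) and TNFRSF17 (from -0.21 to 0.011, the last without DMSO library 1). With the library number as a replicate block, 1791 genes were higher and 2035 lower, 19 members were higher and 2 lower, 36 other pathway genes were higher and 5 lower, and EDEM3 had -0.000822. The labels state no pairs. Deviations from the group means correlated between same-numbered libraries at 0.41, 0.06 and 0.26 for numbers 1, 2 and 3. Mi-2 library 2 correlated at 0.0795 with DMSO library 3, little above its 0.0593 with DMSO library 2. As the value for number 2 was low, the results of the block are given only here. With 3 libraries a group, small changes could not be detected.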

Other observations

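Counts per TPM give, up to a factor per library, the mean length of the transcripts to which a gene's reads were assigned, a measure separate from its level and examined here after the data were seen. Over 9403 genes with a mean TPM of at least 5 and, in every library, at least 50 counts and 1 TPM, limma called 0 genes with a changed length (0% of those tested), while 584 had an unadjusted p under 0.05. Among the 32 members, 3 had an unadjusted p under 0.05, MARCHF6 (-0.14 ± 0.04, log2, Mi-2 minus DMSO), SEL1L (-0.07 ± 0.02) and OS9 (0.08 ± 0.02), with a lowest limma adjusted p of 0.689. OS9 had relative lengths of 1.04, 1.07 and 1.06 in Mi-2 libraries 1, 2 and 3, against 0.984, 1.03 and 0.990 in DMSO libraries 1, 2 and 3. The farthest member from 0 was DERL2, at -0.23 ± 0.10.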
